A study of Mus musculus with 18 samples.

Results

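The 7 genes described here are known from the eosinophil, a granulocyte of bone marrow, blood and tissues, and some also from other cells. They are the eosinophil-associated ribonucleases Ear1, Ear2 and Ear6, the granule protein genes Epx, Prg2 and Prg3, and the chemokine receptor gene Ccr3. They were chosen by symbol, with earlier results of these data known. Their counts, set beside the shares of all genes, therefore describe and do not test. All 7 were listed in both of the authors' deposited tables, which hold 14423 genes for bone marrow and 21830 for spleen. Untransplanted bone marrow was compared between Cgas-/- mice (4 libraries) and mice with both Trex1-/- and Sting1gt/gt, called dKO (4 libraries). Spleen was compared between lethally irradiated dKO mice that had received Cgas-/- marrow (5 libraries) and irradiated dKO mice that had received dKO marrow (5 libraries), 12 weeks after transplantation. All mice were C57BL/6, and neither genotype has cGAS and functional STING in the same cell. In spleen, the recipient's own surviving cells were dKO in both groups, so only cells derived from the graft differed in genotype. RNA came from suspended cells and was read by QuantSeq, which counts tags from the polyadenylated end of a transcript, so a count does not scale with transcript length. Every fold change sets the Cgas-/- group over the dKO group of its tissue, with the marrow donor's genotype naming the group in spleen. No wild-type group was compared, so a decrease in Cgas-/- and an increase in dKO cannot be told apart. The values are means and DESeq2 estimates over the libraries of a comparison; values per library were not analysed here, and their depth is unknown.

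Eosinophils arise in bone marrow from progenitors that respond to interleukin 5, and store cationic proteins that they release when activated. Major basic protein, encoded by Prg2, forms the crystalline core of the granule, and Prg3 encodes a related protein. Eosinophil peroxidase, encoded by Epx, makes hypohalous acids, and the Ear proteins are secreted enzymes of the RNase A superfamily that degrade RNA. CCR3 is the receptor for the eotaxins, chemokines that draw eosinophils into tissue. In mice the Ear family has many duplicated members, and Ear2 transcripts are also known from monocytes and macrophages. TREX1 degrades cytosolic DNA, cGAS senses it and makes cGAMP, and STING responds to cGAMP.

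The targeted genes were in the labelled direction. The authors' deposited tables placed Trex1 at 1.45 ± 0.178 on the log2 scale (± is the standard error throughout) in marrow and 2.71 ± 0.199 in spleen, and Cgas -1.13 ± 0.155 and -0.92 ± 0.217. The myeloid granule gene Mpo had a mean above 99.6% of the genes in the authors' deposited table of bone marrow and above 59.6% in that of spleen. Cr2, a complement receptor gene of B cells and follicular dendritic cells, had a mean above 70.7% of the genes in the authors' deposited table of bone marrow and above 99.7% in that of spleen.

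The 3 ribonuclease genes are close copies, and their sequences are shown because they bear on how far their tags can be told apart. On GRCm38, GENCODE places Ear1 on chromosome 14 from 43818765 to 43875517 (minus strand), Ear2 on the plus strand at 44102654 to 44103534 and Ear6 on the plus strand at 51853699 to 51854643. The annotation holds 5 protein-coding Ear genes (Ear1, Ear10, Ear2, Ear14 and Ear6) and 10 Ear pseudogenes on chromosome 14. Of these, 3 (Ear1, Ear2 and Ear6) were listed in each deposited table. Ear1 overlaps the pseudogenes Ear-ps9 and Ear-ps12 on its own strand and a long noncoding RNA on the other, and Ear2 overlaps a long noncoding RNA on the other strand. The last 150 bases of each coding sequence, with the stop codon, follow from the GENCODE transcripts, with capitals where Ear2 or Ear6 differs from Ear1 in a pairwise alignment.
Ear1: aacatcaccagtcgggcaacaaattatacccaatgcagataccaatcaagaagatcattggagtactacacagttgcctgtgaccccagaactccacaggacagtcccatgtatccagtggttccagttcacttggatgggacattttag
Ear2: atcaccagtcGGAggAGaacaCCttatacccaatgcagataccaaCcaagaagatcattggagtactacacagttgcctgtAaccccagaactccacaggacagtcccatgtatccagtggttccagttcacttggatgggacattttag
Ear6: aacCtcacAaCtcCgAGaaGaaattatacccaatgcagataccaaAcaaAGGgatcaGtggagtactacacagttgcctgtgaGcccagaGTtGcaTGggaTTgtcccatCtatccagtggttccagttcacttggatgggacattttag
Ear2 carries 9 capitals in this stretch and Ear6 carries 21. Over whole coding sequences, Ear1 was 95.1% identical to Ear2 and 87.4% identical to Ear6, and Ear2 was 87.7% identical to Ear6. In the last 300 bases of the transcript, where QuantSeq tags fall, Ear1 and Ear2 were 98.7% identical, and Ear1 and Ear6 were 89.7% identical.

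How much of these ends is unique differed between the members. Of the 251 words of 50 bases in the last 300 bases of Ear1, 151 (60.2%) also occur in a GENCODE transcript of another gene. For Ear2 this was 96 of 251 (38.2%), and for Ear6 it was 9 of 251 (3.59%). With words of 100 bases the shares were 15.9% for Ear1, 0% for Ear2 and 0% for Ear6. The genes that share words with Ear1 were Ear2, Ear6, Ear10, Ear-ps2 and Ear-ps9. None of the 251 words of Epx, Prg2, Prg3 or Ccr3 occurs in another gene. The read length and the handling of tags with several matches were not given in the sources used here, so the values of Ear1 and Ear2 are uncertain to a degree that was not tested, whereas little of the Ear6 end is shared.

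**Figure D1:**
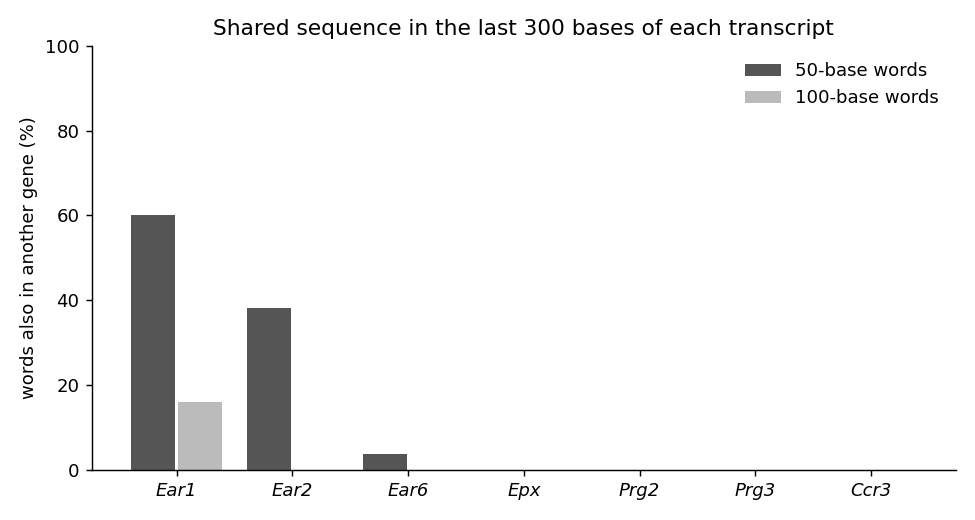
Share (percent) of the words in the last 300 bases of each gene's GENCODE transcript that also occur in a transcript of another gene, for words of 50 bases (dark bars) and 100 bases (light bars). Ear1 stands at 60.2% and 15.9%, Ear2 at 38.2% and 0%, Ear6 at 3.59% and 0%, and the other genes at 0%.

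Ear1 and Ear6 were lower in Cgas-/- than in dKO marrow by about the same amount. Ear2, the most abundant of the 3 ribonucleases, and the granule protein genes had smaller differences that did not pass. Ear1, by the authors' deposited table of bone marrow, had a mean normalized count of 163. With equal group sizes, the deposited mean and fold change correspond to 106 in Cgas-/- marrow and 219.8 in dKO marrow. Ear1 was lower by 1.05 ± 0.240 on the log2 scale, which is 2.08-fold lower in Cgas-/- than in dKO marrow (95% interval 1.50 to 2.88, DESeq2 adjusted p = 0.00519, authors' deposited table). By p-value it ranked 30 of the 14423 genes. Ear6 had a mean of 76.5 in the authors' deposited table, corresponding to 51.5 in Cgas-/- and 102 in dKO marrow. It was lower by 0.98 ± 0.234, or 1.97-fold (95% interval 1.44 to 2.71, DESeq2 adjusted p = 0.0115, authors' deposited table), and ranked 35. These calls were 2 of the 7 members, and 0.361% of all genes in the table were called lower. Both calls rest on the deposited normal p-value adjusted by Benjamini-Hochberg: with a Bonferroni adjustment the adjusted p was 0.156 for Ear1 and 0.401 for Ear6. With a Student t on 6 degrees of freedom in place of the normal it was 0.986 for both, a setting under which 1 gene of the whole table was called.

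Ear2 had a mean of 604 in the authors' deposited table of bone marrow, 3.71 times that of Ear1 and 7.90 times that of Ear6. Its levels of 526 in Cgas-/- and 682 in dKO marrow, computed in the same way, differed by -0.37 ± 0.141 on the log2 scale (DESeq2 adjusted p = 0.292, unadjusted p = 0.00803, authors' deposited table). The 95% interval ran from -0.65 to -0.10, and at this standard error a log2 change of 0.515 would have been needed for a call. The fold change of Ear1 was 0.68 log2 units below that of Ear2, and that of Ear6 was 0.61 below it. These are differences between genes measured in the same libraries and were not tested. The ratio of Ear2 to Ear1 was thus 3.10 in dKO and 4.97 in Cgas-/- marrow. It depends on how tags from the sequence that these genes share were divided between them, which was not tested. The ratio of Ear1 to Ear6 over all bone marrow libraries was 2.13.

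The stretch before the RefSeq start of the 3 ribonuclease genes is shown beside their fold changes, because the 2 called genes and Ear2 are such close copies. RefSeq promoter entries (GRCm38.p6) matched 6 of the 7 members, and Prg2 had none. Below are the first 180 of the 250 bases before each RefSeq start, with capitals where Ear2 or Ear6 differs from Ear1. The 70 bases nearest the start are not shown, since an annotated Ear6 transcript begins there. GENCODE has 2 coding Ear1 transcripts, of which 1 begins at the RefSeq start and the other at 43875517, so the Ear1 window also lies in an intron of the longer one. The windows are chr14:43819710-43819889 on the minus strand for Ear1, and chr14:44102404-44102583 and chr14:51853518-51853697 on the plus strand for Ear2 and Ear6.
Ear1: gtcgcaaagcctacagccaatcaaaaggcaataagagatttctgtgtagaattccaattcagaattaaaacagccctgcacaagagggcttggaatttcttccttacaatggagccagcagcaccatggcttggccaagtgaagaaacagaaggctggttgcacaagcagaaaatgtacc
Ear2: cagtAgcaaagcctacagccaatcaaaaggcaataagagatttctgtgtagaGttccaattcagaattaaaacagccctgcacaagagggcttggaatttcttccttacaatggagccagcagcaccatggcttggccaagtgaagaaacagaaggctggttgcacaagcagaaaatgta
Ear6: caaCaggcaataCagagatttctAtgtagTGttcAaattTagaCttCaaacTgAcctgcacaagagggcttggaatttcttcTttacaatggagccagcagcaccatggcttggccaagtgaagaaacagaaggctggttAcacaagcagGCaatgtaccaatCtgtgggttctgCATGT
Over the 250 bases, the Ear2 window was 99.2% identical to that of Ear1, and the Ear6 window was 85.1% identical to it. The letters CCAAT, searched on both strands, occur 3 times in the Ear1 window, 3 times in that of Ear2 and once in that of Ear6, and 33.8% of 32851 RefSeq windows of this length hold them. The letters GATAA, 1 form of the site that GATA factors bind, occur in none of the windows of Ear1, Ear2, Ear6 and Epx. They occur 2 times in the window of Prg3 and once in that of Ccr3, against 22.6% of all windows. Other forms of the site were not searched. TATAAA occurs once in the Epx window and in 12.4% of all windows. Such matches describe letters, not binding.

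The granule protein genes were the most and the least abundant members in bone marrow, and none passed the test. Prg2, on chromosome 2 at 84980461 to 84983632, had a mean of 1467 in the authors' deposited table, above 94.0% of all genes. Its levels corresponded to 1371 in Cgas-/- and 1562 in dKO marrow, a log2 fold change of -0.19 ± 0.126 (DESeq2 adjusted p = 0.755, authors' deposited table). The 95% interval of Prg2 was -0.43 to 0.06, which does not reach the estimates of Ear1 and Ear6; the difference between the genes was not tested. Epx, on chromosome 11 at 87864000 to 87875536, had a mean of 143, close to that of Ear1, and a log2 fold change of -0.28 ± 0.159 in the authors' deposited table (95% interval -0.59 to 0.04, DESeq2 adjusted p = 0.664). Prg3 lies next to Prg2 on chromosome 2, at 84988215 to 84993886. It had a mean of 33.0 and a log2 fold change of -0.57 ± 0.365 (DESeq2 adjusted p = 0.734, authors' deposited table), with an interval from -1.28 to 0.14 that includes the change of Ear6. The precision of Prg3 was thus too low to place it with either the ribonucleases or Prg2.

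Ccr3 was the 1 member of 7 with a value above 0 in bone marrow. In the authors' deposited table it had a mean of 66.2 and a log2 fold change of 0.30 ± 0.354 (95% interval -0.39 to 0.998, DESeq2 adjusted p = 0.914). Ccr3 lies on chromosome 9 at 124021972 to 124031689, the chromosome that also carries Trex1 and Cgas, and its start is 15.0 Mb from that of Trex1. The other 6 members were below 0, with a median over all 7 of -0.37, where 50.5% of all genes were below 0 and the median of all genes was 0.00 (-0.0023). At an unadjusted p under 0.05, 3 of the 7 (Ear1, Ear2 and Ear6) were lower, against 4.65% of all genes. Because the cells were measured in bulk, fewer expressing cells and less RNA per expressing cell cannot be told apart. Which cells held these transcripts was not tested.

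**Figure D2:**
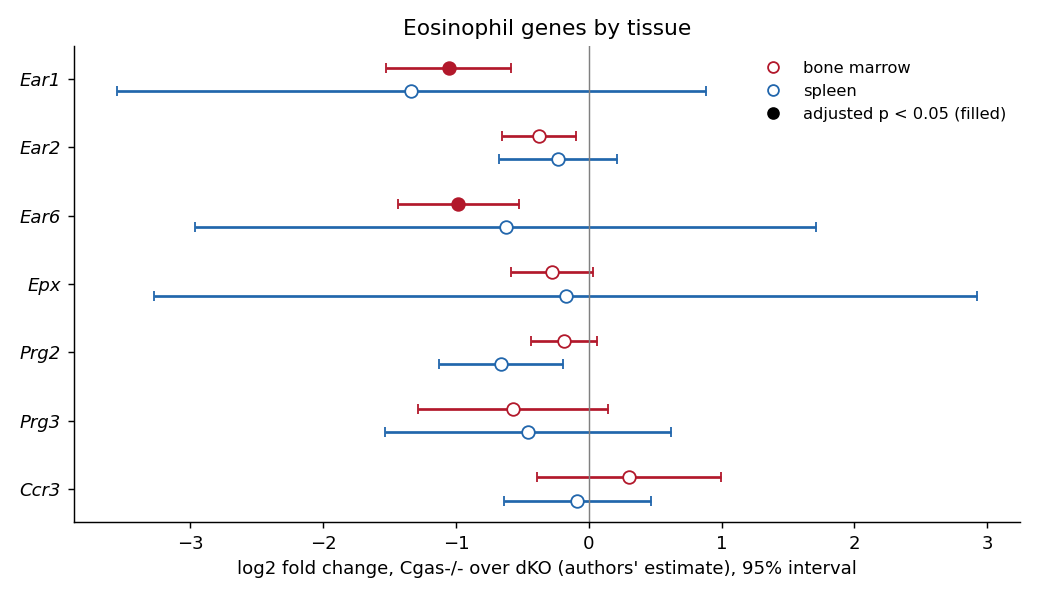
Log2 fold change of the 7 genes, Cgas-/- over dKO, in bone marrow (red) and spleen (blue), from the authors' deposited DESeq2 tables; bars are 95% intervals, and filled points passed an adjusted p of 0.05. Ear1 and Ear6 in bone marrow are the filled points, at -1.05 and -0.98, and the intervals of Ear1, Ear6 and Epx in spleen each span more than 4 log2 units.

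In spleen no member passed the test, and 4 of the 7 had a mean under 20. Prg2 was the most abundant member there as well, with a mean of 147 in the authors' deposited table, corresponding to 114 in recipients of Cgas-/- marrow and 179.9 in recipients of dKO marrow. Its log2 fold change of -0.66 ± 0.238 (95% interval -1.12 to -0.19) had an unadjusted p of 0.00563 and a DESeq2 adjusted p of 1 (authors' deposited table). Of the 7 members, 0 passed the authors' DESeq2 test over all genes, where 0.0779% of all genes were called lower, and 1 was lower at an unadjusted p under 0.05, against 1.85% of all genes. Ccr3 had a mean of 78.5 and a log2 fold change of -0.09 ± 0.282 (interval -0.64 to 0.47, DESeq2 adjusted p = 1, authors' deposited table). Ear2 had a mean of 56.5 and -0.23 ± 0.228 there (interval -0.68 to 0.22, DESeq2 adjusted p = 1, authors' deposited table).

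The other members were sparse in spleen. The authors' deposited table gave means of 8.37 for Prg3, 1.86 for Ear6, 1.74 for Ear1 and 1.03 for Epx. Their log2 fold changes in the authors' deposited table were -0.46 ± 0.548, -0.63 ± 1.19, -1.33 ± 1.13 and -0.17 ± 1.58, in the same order, each with a DESeq2 adjusted p of 1. At these standard errors a log2 change of 4.63 in Ear1, 4.89 in Ear6 or 6.48 in Epx would have been needed for a call. A change of the size seen in bone marrow was thus not detectable in spleen at these low means. All 7 values were below 0 in spleen (median -0.46), as were 55.0% of all genes.

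**Figure D3:**
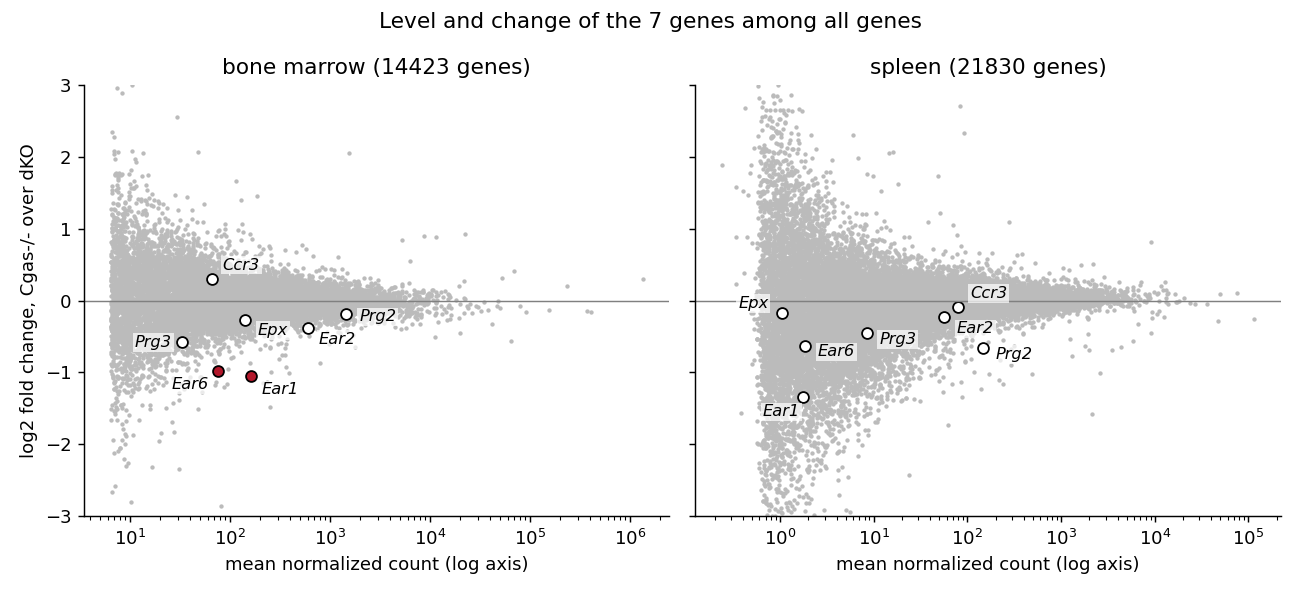
Log2 fold change (Cgas-/- over dKO) against mean normalized count (log axis) for all genes (grey) and the 7 members (circles, red where adjusted p was under 0.05), in bone marrow and spleen. Ear1 and Ear6 lie at the lower edge of the genes of their level in bone marrow, while in spleen Ear1, Ear6 and Epx lie among the sparse genes on the left; genes beyond 3 log2 units (7 in bone marrow, 60 in spleen) are outside the axes.

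The means of the members are set beside that of Prg2, the most abundant of them in both tissues. The tables were normalized separately, so only ratios within a table are given, without an error, since the tables give no mean per library, and they were not tested. By the authors' deposited tables the mean of Prg2 was 1467 against 604 for Ear2 in bone marrow, and 147 against 56.5 in spleen. It was 22.1 times that of Ccr3 in bone marrow and 1.87 times in spleen, and 44.4 and 17.6 times that of Prg3. Of genes used as eosinophil markers, Il5ra had a mean of 47.3 in spleen, while Siglecf (5.42) and Epx (1.03) were sparse, by the authors' deposited table. The mean of Prg2 was 10.2 times that of Epx in bone marrow and 142 times in spleen. Not all members thus kept the same proportion to Prg2 in both tissues, and which cells held their transcripts was not tested.

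The fold changes did not differ detectably between the tissues for any member. The comparisons share no library, so the log2 fold change of spleen less that of bone marrow was tested against its own standard error, and 0 of the 7 members passed at an adjusted p or at an unadjusted p under 0.05, with 0.0581% of 13777 genes called at the adjusted threshold. For Prg2 the difference was -0.47 ± 0.269 (95% interval -0.997 to 0.06, unadjusted p = 0.0806, adjusted p = 0.999, normal test over all shared genes). For Ear2 it was 0.14 ± 0.268 (interval -0.38 to 0.67) and for Ccr3 -0.39 ± 0.452 (interval -1.28 to 0.50). For Ear1 it was -0.28 ± 1.16, with an interval from -2.55 to 1.99, and for Ear6 0.35 ± 1.22, with an interval from -2.03 to 2.74, so wide differences in either direction lie within the intervals of the called genes. The spleen comparison also differs from that of bone marrow in irradiation, transplantation and the recipient's genotype.

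Genes that eosinophils need for development or carry on their surface were mostly below 0 in bone marrow. Of 27 such genes, 24 were listed in bone marrow; 18 were below 0 (median -0.15), 2 passed lower (0.361% of all genes) and 0 higher. At an unadjusted p under 0.05, 8 of the 24 were lower, against 4.65% of all genes. These were Csf2rb, Csf2rb2, Csf2ra, Trib1, Xbp1, Id2, Alox5 and Adgre1, while Siglecf, Il5ra and Alox15 were not among them. The list, like the members, was chosen with earlier results of these data known. Csf2rb, the beta chain shared by the receptors for interleukin 3, interleukin 5 and GM-CSF, was lower by 0.42 ± 0.0875 (DESeq2 adjusted p = 0.00115, authors' deposited table). Its mouse duplicate Csf2rb2, which serves interleukin 3, stood at -0.53 ± 0.168 and did not pass (DESeq2 adjusted p = 0.138, authors' deposited table). Trib1, a pseudokinase that directs degradation of C/EBP proteins, was lower by 0.39 ± 0.0979 (DESeq2 adjusted p = 0.0237, authors' deposited table). Csf2rb and Trib1 are expressed in many myeloid cells. Of genes closer to the eosinophil, Siglecf, a sialic acid receptor of mature cells, had a mean of 53.0 and a log2 fold change of -0.43 ± 0.283 (DESeq2 adjusted p = 0.749, authors' deposited table). Il5ra, the chain specific to interleukin 5, had a mean of 14.7 and -0.17 ± 0.500 (DESeq2 adjusted p = 0.984, authors' deposited table). In spleen, 25 of the 27 were listed, 15 were below 0 (median -0.06), and 0 passed the authors' DESeq2 test or an unadjusted p of 0.05. Il5ra had a mean of 47.3 and 0.19 ± 0.198 there, and Siglecf a mean of 5.42 and 0.36 ± 0.587, in the authors' deposited table.

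Genes of eosinophil cytokines and CCR3 ligands were mostly not listed in bone marrow. Of 15, 4 were listed in bone marrow and 8 in spleen, and Il5 and Ccl11, which encode interleukin 5 and an eotaxin, were listed in neither table used here. None passed the authors' DESeq2 test, and none had an unadjusted p under 0.05. The best measured was Ccl5, a ligand of CCR3 and other receptors, at -0.18 ± 0.177 in marrow and -0.09 ± 0.114 in spleen (authors' deposited tables). Of 24 other genes of the RNase A superfamily, 3 were listed in bone marrow and 4 in spleen, and none passed or had an unadjusted p under 0.05. Rnase6, a ribonuclease of the same superfamily, had a mean of 655 in bone marrow, like that of Ear2, and 0.03 ± 0.100 in the authors' deposited table. In spleen it had 0.11 ± 0.113 with a mean of 1187 (authors' deposited table).

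Markers of other cells that can hold these transcripts were read beside the members, and the part of those cells in the results was not tested. Over all genes in bone marrow, 50.5% were below 0 and 0.361% were called lower, and both monocyte lists are to be read beside these shares. Of 16 Ly6C-low monocyte genes, all were listed in bone marrow, 11 were below 0 (median -0.21), and 1 passed. That gene, Cd300e, an activating receptor of monocytes, was lower by 1.68 ± 0.460 (DESeq2 adjusted p = 0.0479, authors' deposited table). Itgal, an integrin chain of many leukocytes, had -0.27 ± 0.0794 (DESeq2 adjusted p = 0.0958, authors' deposited table). Nr4a1 had 0.28 ± 0.277 and Spn -0.01 ± 0.0901 in bone marrow (authors' deposited table). The summed level of the list corresponded to 7768 in Cgas-/- and 8455 in dKO marrow. Of 14 classical monocyte genes, 12 were below 0 (median -0.25) and 3 passed lower: Ms4a4c at -0.60 ± 0.150, Csf1r at -0.37 ± 0.0988 and Ly6c2 at -0.33 ± 0.0794 (DESeq2 adjusted p = 0.0214, 0.0356 and 0.0116, authors' deposited table). The 2 above 0 were Irf8 at 0.23 ± 0.0741 and Klf4 at 0.21 ± 0.238 (authors' deposited table). Irf8 was higher at an unadjusted p of 0.00228 and did not pass (DESeq2 adjusted p = 0.173, authors' deposited table). The summed level of the 14 genes corresponded to 45769 in Cgas-/- and 52150.2 in dKO marrow. Chil3, with a mean of 16213 by the authors' deposited values, is in this sum and also in the list of neutrophil secondary and tertiary granule genes. These lists share no gene with the 7 members.

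Basophil and mast cell genes were mostly above 0 in bone marrow. Of 18, 14 were listed in bone marrow, 3 were below 0 (median 0.05), and 0 passed the authors' DESeq2 test. At an unadjusted p under 0.05, 605 of all 14423 genes and 1 of the listed 14 were higher. That gene, the transcription factor gene Gata2, had 0.31 ± 0.145, and the stem cell factor receptor gene Kit 0.28 ± 0.146, in the authors' deposited table. The 3 below 0 were Fcer1a at -0.29 ± 0.266, Ms4a2 at -0.11 ± 0.205 and Mitf at -0.37 ± 0.259 (authors' deposited table). Prss34, a protease of basophils, had a mean of 1976 and a log2 fold change of 0.14 ± 0.130 in the authors' deposited table, and Mcpt8, another, a mean of 1315 and 0.08 ± 0.215. The mast cell protease genes Tpsb2, Tpsab1, Mcpt4 and Cma1 were not listed in the bone marrow table used here. The summed level of the 14 listed genes corresponded to 6150.2 in Cgas-/- and 5711 in dKO marrow. Neutrophil granule genes were all below 0 in bone marrow, with a median of -0.06 over 6 primary granule genes and of -0.16 over 10 secondary and tertiary granule genes. Of these, Lyz2, the lysozyme of myeloid cells, was the 1 call, at -0.56 ± 0.0892 (DESeq2 adjusted p = 3.76e-07, authors' deposited table). Over all genes in bone marrow, 50.5% were below 0 and 0.361% were called lower. Of 13 listed tissue macrophage genes, 5 were below 0 (median 0.05) and 0 passed, and Adgre1, which eosinophils also carry, had -0.46 ± 0.171 (DESeq2 adjusted p = 0.280, unadjusted p = 0.00704, authors' deposited table).

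In spleen, granule genes of neutrophils were below 0, and basophil and mast cell genes lay on both sides of it. All 6 primary granule genes (median -0.59) and all 10 secondary and tertiary granule genes (median -0.55) were below 0, with 1 and 2 at an unadjusted p under 0.05 and 0 past the authors' DESeq2 test. Over all genes in spleen, 55.0% were below 0 and 1.85% were lower at that unadjusted threshold, while 256 of 21830 were higher. Elane, neutrophil elastase, had -0.91 ± 0.453 in the authors' deposited table (unadjusted p = 0.0440, DESeq2 adjusted p = 1). Of 15 listed basophil and mast cell genes, 9 were below 0 in spleen (median -0.10), 0 passed the authors' DESeq2 test, and at an unadjusted p under 0.05 1 was lower and 1 higher. The higher one was Osm, the gene of the cytokine oncostatin M, at 0.30 ± 0.155 (unadjusted p = 0.0496, authors' deposited table). The lower one was Mcpt8, with a mean of 17.9 and -1.02 ± 0.360 (unadjusted p = 0.00470, authors' deposited table), and Prss34 had -1.07 ± 0.618 (unadjusted p = 0.0830, authors' deposited table). Other genes of this list did not share so low a value. Fcer1a had 0.50 ± 0.838, Hdc 0.24 ± 0.278, Cd200r3 0.03 ± 0.379, Cpa3 -0.15 ± 0.573 and Ms4a2 -0.51 ± 0.359 in spleen, by the authors' deposited values. The monocyte lists had medians of -0.04 (Ly6C-low) and 0.03 (classical) there, with 0 calls. In the Ly6C-low list, Fabp4, a fatty acid carrier, had -0.68 ± 0.241 and the immediate early gene Nr4a1 0.26 ± 0.128 in the authors' deposited table for spleen (unadjusted p = 0.00506 and 0.0448). Whether cells that share these granule genes account for the value of Prg2 was not tested.

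**Figure D4:**
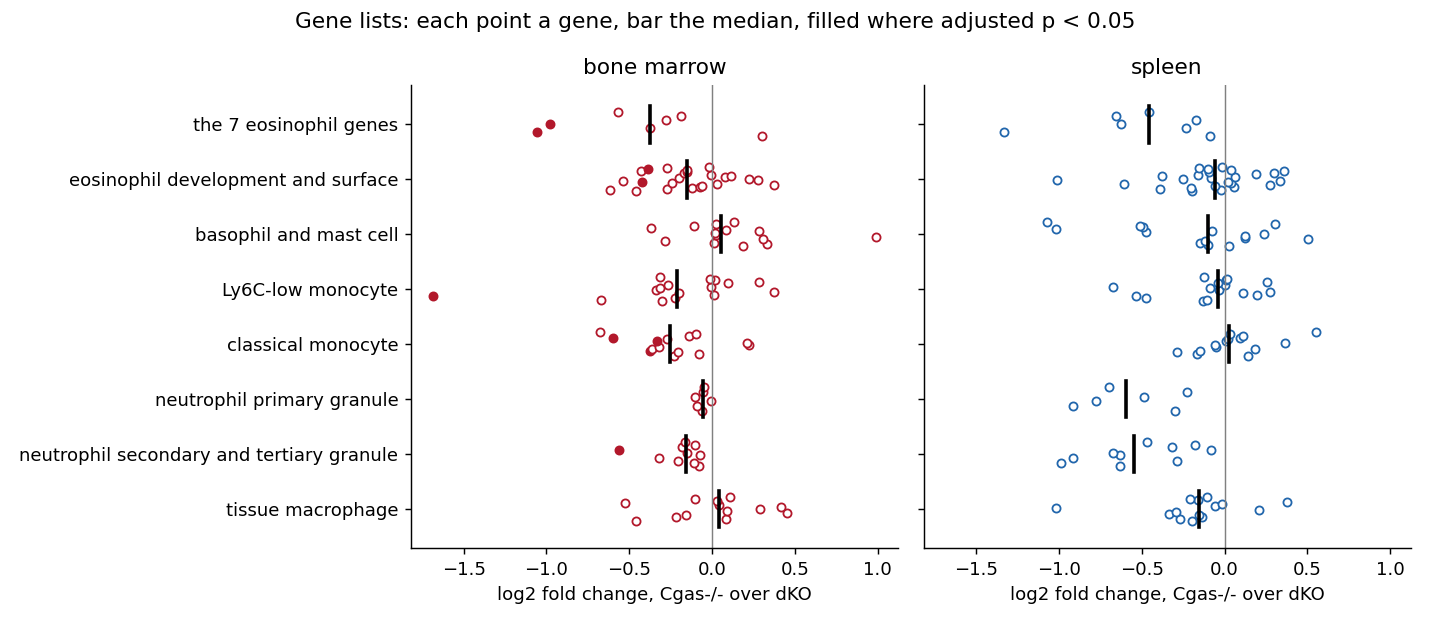
Log2 fold change (Cgas-/- over dKO) of each gene of 8 lists in bone marrow and spleen, from the authors' deposited tables; bars are list medians and filled points passed an adjusted p of 0.05. The 7 eosinophil genes have medians of -0.37 and -0.46, the basophil and mast cell genes 0.05 and -0.10, and the neutrophil primary granule genes -0.06 and -0.59.

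The genes whose pair of fold changes lay nearest to those of Ear1 and Ear6 were found by Euclidean distance over 2 comparisons, among 9997 genes with a mean of at least 20 in both tables. For Ear1 they were Slc15a2 (distance 0.224), Cgas (0.420) and Ighg2c (0.478), and for Ear6 they were Gm4117 (0.0242), Hemk1 (0.124) and Cgas (0.329). Slc15a2 had -0.84 ± 0.772 in marrow and -1.27 ± 0.191 in spleen (authors' deposited tables), and Gm4117 had -0.97 ± 0.394 and -0.61 ± 0.413. The spleen values of Ear1 and Ear6 carry standard errors above 1, so these distances are loose.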

How the data were processed

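QuantSeq forward libraries were made from total RNA of suspended cells, per the labels' protocols, and 18 libraries fell into 4 groups by their titles. Per the submitters' processing notes, the build was mm10 and the tools were STAR 2.6.1, bcl2fastq 1.8.4, DESeq2 and Partek. The counting tool, its strand setting, the annotation and the gene filter were not given in the sources used here. A mean normalized count is a signal that the authors averaged over the libraries of a comparison, per the file headers. Each log2 fold change comes with a standard error, both from the authors' DESeq2 fit as deposited. The Wald score and a ranking score are deposited beside them, and the p-value and its Benjamini-Hochberg adjustment are the authors' as deposited. These relations were checked by recomputation. The tables were filtered differently: the smallest mean was 6.46 in bone marrow and 0.239 in spleen.

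A call is a deposited adjusted p under 0.05. Group levels were computed from the deposited mean and fold change, assuming equal group sizes. The labels do not say that each library is another mouse, so p-values measure the spread between libraries, which may be technical. The change that would pass is the smallest absolute Wald score among called genes times the standard error. The difference between tissues was tested as its ratio to the root of the summed squared standard errors, two-sided normal, with Benjamini-Hochberg adjustment over shared symbols. Lists were described by counts and medians. Symbols were matched to GENCODE M21 (GRCm38), and sequences were aligned globally with Biopython 1.88 (match 2, mismatch -1, gap -5 and -1, free ends). The steps were tested on simulated data. Named genes were drawn from the members, the targeted genes, Il5ra and Siglecf, each list's calls and its 2 best-ranked genes with a mean of at least 20, and the 3 genes nearest each called member; other genes were chosen after their values were seen. The members and lists were chosen with earlier results of these data known. Alternatives changed the genes adjusted over, the reference distribution, the adjustment and the centring. Calculations used Python 3.11.15, pandas 2.3.3, numpy 2.4.6 and scipy 1.17.1, and figures matplotlib 3.10.9.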

Additional observations from a re-analysis of the deposited data

How the results depend on the processing

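Of the 66 recomputed values of single members, 62 kept their direction and their side of the threshold and 4 lost the call, those of Ear1 and Ear6 in bone marrow with a Student t distribution and with a Bonferroni adjustment. The number of members called in bone marrow was 2 as deposited, with genes of a mean of at least 20, with genes listed in both tables and after centring on the median, and these were Ear1 and Ear6 each time. It was 0 with the Student t and 0 with Bonferroni. Under these settings the table as a whole held 1 and 23 calls in place of 77. In spleen and for the difference between tissues 0 members were called under every alternative run, while the Student t left 11 of 29 calls over all genes in spleen and 2 of 8 for the difference. The Student t ignores the sharing of spread across genes in DESeq2. No paired analysis was possible because the tables hold comparisons and no values per library, and for the same reason no library could be left out. The low level of Ear1, Ear6 and Epx limits what the spleen can show.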
